A study of Mus musculus with 12 samples.

Results

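The genes described here repair DNA crosslinks through the Fanconi pathway and homologous recombination. They are Fanca, Fancc, Fancd2, Fancg, Fancl, Brca1, Brca2, Bard1 and Rad54l. These 9 genes were chosen by their known function, with earlier results of these data known. A probe set, the group of short probes that reports 1 transcript on an Affymetrix array, was taken for a member where the platform annotation gave that gene alone, by its current or a former symbol. This gave 16 of the 22690 probe sets and 8 of the 12393 genes that have a probe set of their own. Fancd2 was matched to no probe set by that rule and is not analysed here.

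RNA came from primary mouse embryonic fibroblasts, taken at embryonic day 13.5 and grown in DMEM with FCS to passage 2. There were 4 groups with 3 arrays each: Rb null cells given 16 µM cisplatin for 24 hours, wildtype cells given the same dose for the same time, untreated Rb null cells and untreated wildtype cells. Rb null (Rb-/-) cells have no working copy of the retinoblastoma gene, and the strain, the allele and the number of embryos are not given in the sources used here. The design describes 4 RNA samples, each hybridized 3 times from 6 µg of total RNA made into biotinylated cRNA. The p-values below therefore measure the spread between arrays, which may be technical, and not that between embryos or cultures.

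Cisplatin joins bases of DNA, and a link between both strands blocks replication forks. In the Fanconi pathway a core complex of proteins that includes FANCA, FANCC, FANCG and the ubiquitin ligase FANCL marks FANCD2 and FANCI with ubiquitin, after which nucleases cut the crosslink out. The broken strand is then restored by homologous recombination, in which BRCA1 with BARD1 prepares the ends, and BRCA2 and RAD54 take part in the later steps that copy the sister strand. Several of these genes are known to be transcribed mainly as cells replicate, and Rb is best known for binding E2F transcription factors and holding such genes down.

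The arrays were checked against their labels first. The Rb1 signal was 89.6 ± 14.5 in Rb null cisplatin arrays and 383 ± 60.1 in wildtype cisplatin arrays, and 94.0 ± 9.99 in untreated Rb null arrays against 460 ± 35.4 in untreated wildtype arrays (SD, n = 3 each). In sex-linked transcripts the 3 arrays of untreated wildtype cells were unlike the other 9. Xist, the RNA of the inactive X chromosome, was 3443 ± 281 in Rb null cisplatin, 2379 ± 198 in wildtype cisplatin and 3139 ± 329 in untreated Rb null arrays, but 132 ± 26.7 in untreated wildtype arrays. The Y-linked Eif2s3y averaged 6.63, 1.27 and 1.43 in those 3 groups in the same order and 478 ± 7.90 in untreated wildtype arrays. Every comparison that uses the untreated wildtype cells therefore spans a difference in genotype or treatment and one in sex-linked transcripts, and their shares in a result cannot be told apart. These are the genotype comparison without cisplatin, the cisplatin change in wildtype cells and the difference between the 2 cisplatin changes. All 9 fibroblast markers were tested, and their summed signal was 36172 to 37220 in Rb null cisplatin, 46903 to 49082 in wildtype cisplatin, 57386 to 59325 in untreated Rb null and 59951 to 63831 in untreated wildtype arrays. Such sums weight strong probe sets most. Of the 9, cisplatin lowered 4 and raised 0 in Rb null cells, where 20.3% of all genes fell and 16.6% rose. In wildtype cells it lowered 4 and raised 2, Pdgfra (log2 1.91) and Dcn (1.31), where 12.7% of all genes fell and 14.8% rose. Of 10 macrophage and leukocyte markers 9 were strong enough to test, with sums of 5486 to 5685, 10210 to 10738, 6509 to 6818 and 4711 to 4971 in the same order of groups as the fibroblast sums. Of these 9, cisplatin lowered 6 and raised 2 in Rb null cells (median log2 -1.01), and raised 4 and lowered 0 in wildtype cells. After cisplatin 6 were lower and 0 higher in Rb null than in wildtype cells, beside 13.3% and 9.67% of all genes. The epithelial markers Epcam and Cdh1, the endothelial Pecam1, Cdh5, Tek and Emcn, and the erythroid Hba-a1 and Alas2 were too weak to test. The other 3 epithelial markers were tested, and cisplatin raised Krt18 (log2 2.13 in Rb null and 2.31 in wildtype cells) and Krt19 (2.42 and 1.29), while Krt8 was not called. The summed epithelial signal was 1201 to 1338 in Rb null cisplatin, 1152 to 1352 in wildtype cisplatin, 295 to 399 in untreated Rb null and 494 to 553 in untreated wildtype arrays. The tested endothelial marker Kdr was called in none of the 5 comparisons. The part of these markers in the results below was not tested.

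Values are MAS5 signals, linear intensities that the authors deposited scaled to 1 common mean per array, and they are not comparable between probe sets. A change is given as a difference of log2(signal + 10.4), which understates the change of weak probe sets. It was called where limma's adjusted p was under 0.05 over all 13575 tested probe sets and the change was at least 1.5-fold. Of the 16 member probe sets 10 were strong enough to be tested, covering 7 genes, and the other 6 are named below. Since the arrays measure bulk RNA, more cells making a transcript and more transcript per cell cannot be told apart.

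Without cisplatin, 5 of the 7 tested genes were higher in Rb null cells: Fanca, Fancl, Brca1, Brca2 and Rad54l, by 1.94- to 3.17-fold. Over all tested genes 8.07% were higher in that comparison. After cisplatin 2 of the 7 were higher in Rb null cells, Brca1 and Brca2, beside 9.67% of all tested genes. By their leading probe sets, cisplatin raised Fanca, Brca1 and Rad54l in wildtype cells, where 14.8% of all tested genes rose. In Rb null cells it lowered Fancl, where 20.3% of all tested genes fell, and left no leading probe set of a member higher by the test. By probe sets, 6 of 10 were called higher and 0 lower in untreated Rb null cells, where 7.68% of all tested probe sets were called higher and 4.69% lower.

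**Figure D1:**
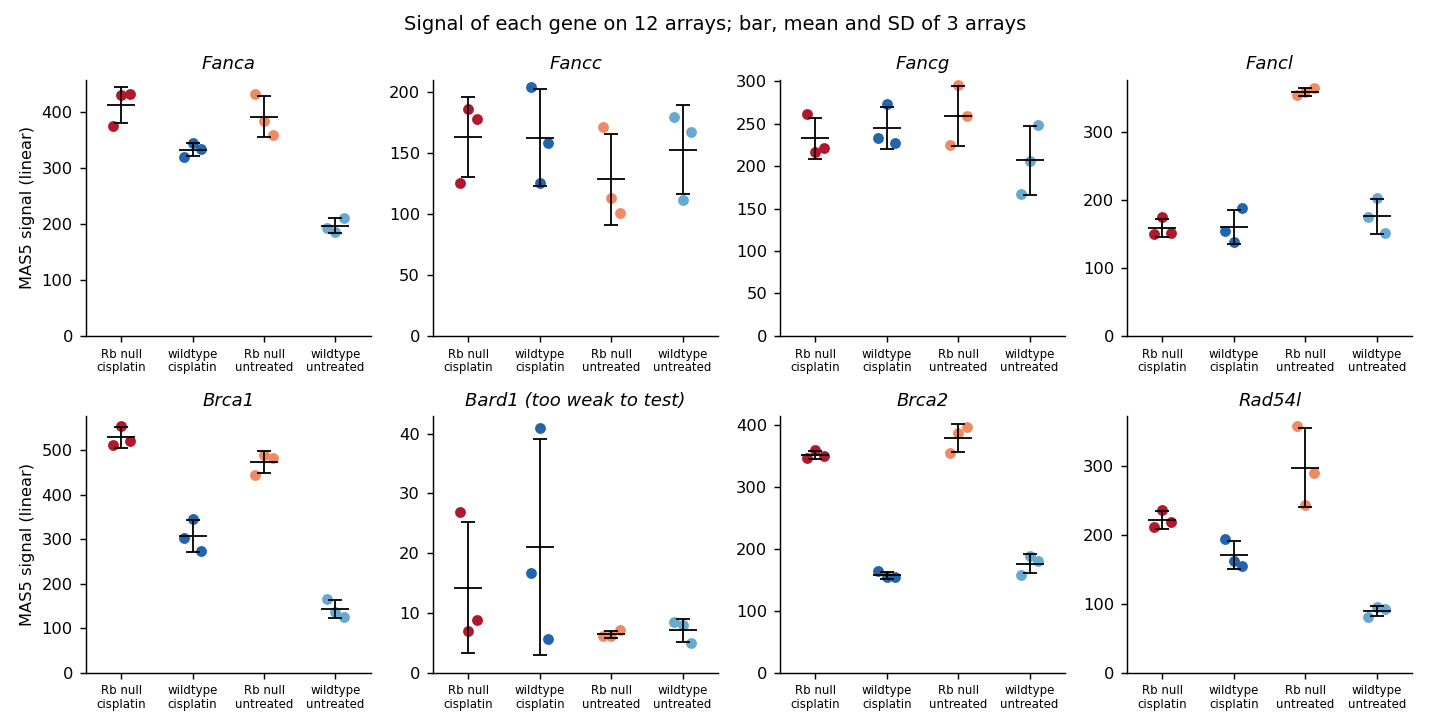
MAS5 signal (linear, y axis from 0) of the leading probe set of each measured gene on all 12 arrays, by group. Points are arrays and bars show the mean and SD of 3 arrays. Fanca, Brca1 and Rad54l were lowest in untreated wildtype cells, Brca2 was low in both wildtype groups and Fancl was high in untreated Rb null cells alone among the 4 groups.

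Fanca, a scaffold subunit of the core complex, lies on chromosome 8 at 123266294 to 123318651 in GRCm38.p6. Its leading probe set, 1418856_a_at, gave 375.3, 430.6 and 432.7 in Rb null cisplatin arrays and 320.4, 344.5 and 334.8 in wildtype cisplatin arrays. In untreated cells it gave 433.3, 384.0 and 360.2 in Rb null and 193.8, 186.5 and 211.8 in wildtype arrays. Untreated wildtype cells were lowest with no overlap, wildtype cisplatin cells came next, and the 2 Rb null groups overlapped each other. Fanca was 1.94-fold higher in untreated Rb null than in untreated wildtype cells (log2 0.95 ± 0.10 SE, limma adjusted p = 4.25e-06). It rose 1.66-fold with cisplatin in wildtype cells (0.73 ± 0.10, limma adjusted p = 2.5e-05). In Rb null cells the cisplatin difference was 0.07 ± 0.10 on the log2 scale, with a 95% interval of -0.14 to 0.29. After cisplatin the genotypes differed by 0.30 ± 0.10 (limma adjusted p = 0.0226), which is 1.23-fold and under the minimum for a call. The 2 cisplatin changes differed by -0.65 ± 0.14 (limma adjusted p = 0.00239). That last call fell just under 1.5-fold with quantile normalization (-0.56), with each array centred on its median (-0.55) and without array 1 of the untreated Rb null group (-0.58). A weaker Fanca probe set, 1452513_a_at, was not in the main test and read 20.5 to 79.1 over all arrays. It did not share the wildtype rise. Without the filter on low values its cisplatin difference in wildtype cells was -0.36 ± 0.26, interval -0.92 to 0.21, which lies below 0.73. Its cisplatin changes differed by 0.04 ± 0.37, interval -0.75 to 0.84, and its lowest group mean was that of wildtype cisplatin arrays.

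Fancl, the ubiquitin ligase subunit, lies on chromosome 11 at 26387084 to 26471883. Its only probe set, 1423624_at, gave 150.2, 173.9 and 150.7 in Rb null cisplatin arrays and 153.3, 138.1 and 187.4 in wildtype cisplatin arrays. Untreated Rb null arrays gave 353.3, 358.0 and 364.6, against 174.5, 201.8 and 150.4 in untreated wildtype arrays. The untreated Rb null arrays stood alone above the other 9, which overlapped one another. Fancl was 2.00-fold higher in untreated Rb null than in untreated wildtype cells (log2 1.00 ± 0.14, limma adjusted p = 5.55e-05). After cisplatin the genotype difference had a 95% interval of -0.30 to 0.29. Cisplatin lowered Fancl 2.19-fold in Rb null cells (-1.13 ± 0.14, limma adjusted p = 4.48e-06), and in wildtype cells the difference was -0.13 ± 0.14 with an interval of -0.42 to 0.16. The 2 cisplatin changes differed by -1.0 ± 0.19 (limma adjusted p = 0.00104).

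Fancg, an adaptor of the core complex, lies on chromosome 4 at 43002337 to 43010567, and none of its 5 comparisons was called. Its leading probe set 1450059_at gave 260.8, 217.0 and 221.3 in Rb null cisplatin, 233.6, 273.7 and 227.3 in wildtype cisplatin, 224.7, 295.3 and 258.7 in untreated Rb null and 167.1, 205.5 and 247.9 in untreated wildtype arrays. All neighbouring groups overlapped. The untreated genotypes differed by 0.32 ± 0.15 on the log2 scale (limma adjusted p = 0.114), with an upper 95% bound of 0.64, and the cisplatin changes differed by -0.39 ± 0.21 (limma adjusted p = 0.162, interval -0.84 to 0.06). The second probe set, 1420960_at, was too weak to test and read 37.0 to 168.4 over all arrays.

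Fancc, another core subunit, lies on chromosome 13 at 63301334 to 63497292 and is the longest of the members. Its 2 probe sets did not move alike. The leading one, 1447632_at, gave 125.8, 186.2 and 178.4 in Rb null cisplatin, 204.6, 125.7 and 158.0 in wildtype cisplatin, 171.4, 112.9 and 100.9 in untreated Rb null and 180.0, 111.4 and 167.4 in untreated wildtype arrays. These overlapped in every comparison, and the cisplatin difference in Rb null cells was 0.34 ± 0.24 (log2, limma adjusted p = 0.225). The other, 1450861_at, gave 105.7, 92.6 and 98.9 in Rb null cisplatin arrays and 120.5, 118.7 and 88.9 in wildtype cisplatin arrays. Untreated arrays of that probe set gave 171.8, 172.2 and 179.7 in Rb null and 151.8, 141.0 and 188.4 in wildtype cells. Every cisplatin array was thus below every untreated array. It fell 1.69-fold in Rb null cells (log2 -0.76 ± 0.16, limma adjusted p = 0.000649) and differed by -0.51 ± 0.16 in wildtype cells (limma adjusted p = 0.0124), 1.43-fold and not called. Without array 2 of the untreated wildtype group the wildtype difference was -0.60 and called.

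Brca1, which acts with BARD1 in preparing broken ends, lies on chromosome 11 at 101488761 to 101551955 and showed the largest genotype difference of the leading probe sets in untreated cells. Its leading probe set 1424629_at gave 511.7, 554.5 and 520.1 in Rb null cisplatin arrays and 302.4, 346.3 and 274.5 in wildtype cisplatin arrays. Untreated arrays gave 444.2, 490.0 and 483.3 in Rb null and 165.2, 137.1 and 126.1 in wildtype cells. No neighbouring groups overlapped, and the order was untreated wildtype, wildtype cisplatin, untreated Rb null and Rb null cisplatin, from low to high. Brca1 was 3.17-fold higher in untreated Rb null than in untreated wildtype cells (log2 1.66 ± 0.11, limma adjusted p = 4.38e-08) and 1.70-fold higher after cisplatin (0.77 ± 0.11, limma adjusted p = 6.43e-05). Cisplatin raised it 2.08-fold in wildtype cells (1.06 ± 0.11, limma adjusted p = 1.97e-06). In Rb null cells the cisplatin difference was 0.16 ± 0.11, interval -0.08 to 0.40, although the arrays did not overlap. The 2 cisplatin changes differed by -0.90 ± 0.16 (limma adjusted p = 0.000564).

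A second Brca1 probe set, 1451417_at, gave 226.1, 211.2 and 211.9 in Rb null cisplatin, 109.6, 113.6 and 113.9 in wildtype cisplatin, 223.6, 199.7 and 201.3 in untreated Rb null and 23.7, 51.3 and 71.2 in untreated wildtype arrays. It had the same calls as the leading one in all 5 comparisons, with 3.93-fold between the untreated genotypes (log2 1.97 ± 0.24) and -1.09 ± 0.33 between the cisplatin changes (limma adjusted p = 0.0194). Another, 1427698_at, was called in none of them, ranging from 90.5 to 226.5 over all arrays with overlap throughout. Its difference between the untreated genotypes was 0.11 ± 0.27 on the log2 scale, with a 95% interval of -0.47 to 0.69 that lies below the 1.66 of the leading probe set. Without array c of the wildtype cisplatin group its cisplatin change in wildtype cells was 0.63 and called. The last, 1424630_a_at, was too weak for the main test. It gave 92.7, 77.4 and 82.7 in Rb null cisplatin, 53.7, 32.6 and 27.3 in wildtype cisplatin, 71.8, 81.5 and 59.0 in untreated Rb null and 15.7, 25.3 and 3.7 in untreated wildtype arrays.

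Bard1, the partner of Brca1, lies on chromosome 1 at 71027535 to 71103141, and its probe set 1420594_at was too weak to test. It gave 26.9, 7.0 and 8.8 in Rb null cisplatin, 16.6, 41.0 and 5.7 in wildtype cisplatin, 6.1, 6.1 and 7.1 in untreated Rb null and 8.5, 7.9 and 4.9 in untreated wildtype arrays. Only 8.07% of probe sets had a mean as low, and no statement about Bard1 RNA can be drawn from signals of that size.

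Brca2, which acts on single-stranded DNA in homologous recombination, lies on chromosome 5 at 150522297 to 150570147. Its probe set 1419076_a_at gave 346.7, 359.8 and 349.8 in Rb null cisplatin arrays and 164.1, 154.2 and 154.8 in wildtype cisplatin arrays. Untreated arrays gave 354.5, 387.0 and 397.3 in Rb null and 158.6, 189.2 and 180.9 in wildtype cells. The groups of 1 genotype overlapped each other, and every Rb null array was above every wildtype array. Brca2 was 2.09-fold higher in untreated Rb null cells (log2 1.07 ± 0.10, limma adjusted p = 1.39e-06) and 2.16-fold higher after cisplatin (1.11 ± 0.10, limma adjusted p = 6.81e-07). The cisplatin differences were -0.10 ± 0.10 in Rb null cells (interval -0.32 to 0.11) and -0.15 ± 0.10 in wildtype cells (interval -0.36 to 0.07). They differed by 0.04 ± 0.14, interval -0.26 to 0.35, which does not reach the -0.65 to -1.24 of the 4 members called in that comparison.

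Rad54l, a DNA motor protein of homologous recombination, lies on chromosome 4 at 116094261 to 116123700. Its leading probe set 1450862_at gave 212.0, 237.1 and 218.7 in Rb null cisplatin arrays and 194.6, 162.8 and 155.3 in wildtype cisplatin arrays. Untreated arrays gave 358.8, 244.5 and 290.4 in Rb null and 81.4, 94.8 and 92.7 in wildtype cells. No neighbouring groups overlapped, with untreated wildtype lowest and untreated Rb null highest. Rad54l was 3.05-fold higher in untreated Rb null than in untreated wildtype cells (log2 1.61 ± 0.15, limma adjusted p = 9.68e-07), and after cisplatin the difference was 0.37 ± 0.15 (limma adjusted p = 0.0501, not called). It rose 1.81-fold with cisplatin in wildtype cells (0.85 ± 0.15, limma adjusted p = 0.000189). In Rb null cells the difference was -0.39 ± 0.15 (limma adjusted p = 0.0312), 1.31-fold and under the minimum for a call. The 2 cisplatin changes differed by -1.24 ± 0.21 (limma adjusted p = 0.000339), the largest such difference among the members. Its other probe sets, 1423123_at and 1423124_x_at, read 12.2 to 49.4 over all arrays and were too weak to test. The second of these carries a suffix that marks probes shared with other transcripts.

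**Figure D2:**
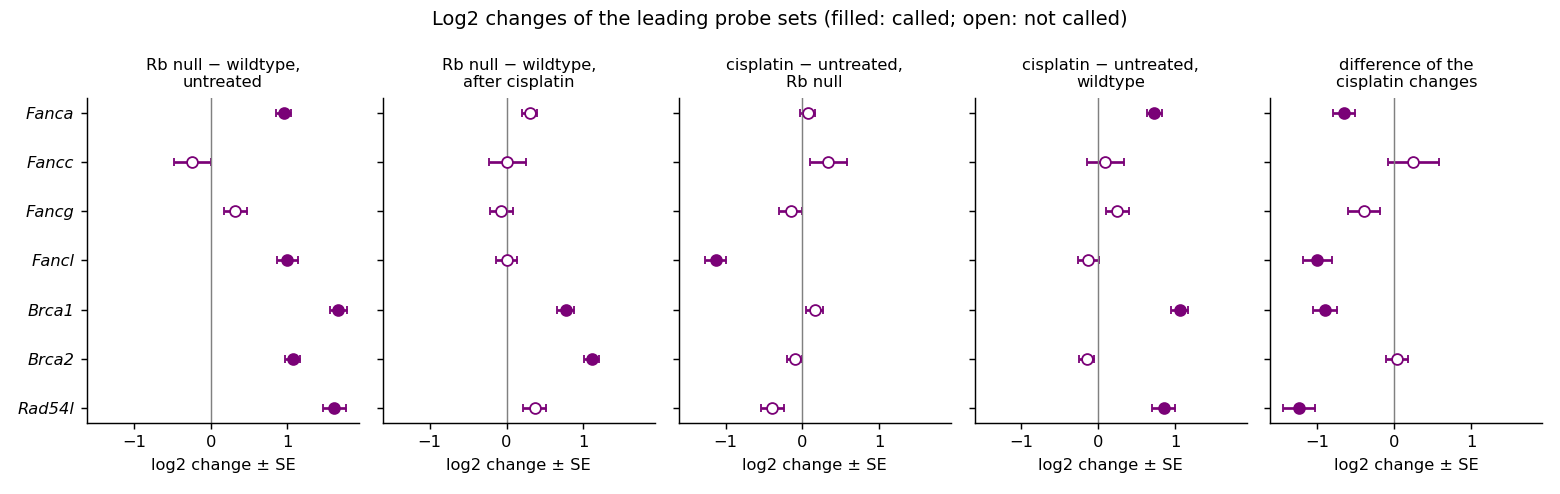
Log2 change ± SE (x axis) of the leading probe set of the 7 tested genes in the 5 comparisons, each with 3 arrays per group. Filled points were called and open points were not. In the right-hand panel Fanca, Fancl, Brca1 and Rad54l lie below 0 and Brca2 lies at 0.04.

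Set against all genes, with 1 probe set per gene and 7945 genes tested, the members' counts read as follows. In untreated cells 5 of 7 members were called higher and 0 lower in Rb null than in wildtype cells, where 8.07% of all genes were higher and 5.08% lower, and the members' median log2 difference was 0.998 against -0.00934 for all genes. After cisplatin 2 of 7 were higher and 0 lower, where 9.67% and 13.3% of genes were called in those directions, and the medians were 0.298 and -0.0512. Of the 10 probe sets 3 were higher in that comparison, beside 9.21% higher and 12.9% lower over all probe sets. Cisplatin in Rb null cells called 0 of 7 members higher and 1 lower, where 16.6% of genes rose and 20.3% fell, so the members' count is near the background. By probe sets it was 0 higher and 2 lower of 10, beside 15.8% and 20.9%. In wildtype cells cisplatin called 3 of 7 higher and 0 lower, where 14.8% of genes rose and 12.7% fell, and by probe sets 4 of 10 and 0, beside 13.5% and 13.2%. The difference between the cisplatin changes was called in 4 of 7 genes, all with a smaller or more negative change in Rb null cells, where 15.0% of all genes were called in that direction and 8.7% in the other. By probe sets it was 5 of 10, beside 14.4% and 8.64%. The comparisons share groups: the untreated wildtype arrays enter the first, the fourth and the fifth.

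Scaling moved these backgrounds. Of all probe sets called, 41.6% were higher in Rb null cells after cisplatin, and 51.6% with each array centred on its median. In Rb null cells the share of calls that were higher with cisplatin was 43% as deposited and 56.3% after centring, which moved the median of all probe sets from -0.0228 to 0.123. For the difference between the changes the share was 37.5%, against 46.9% with quantile normalization and 51.6% after centring. The members' gene counts were the same under both scalings, except that Fanca left the difference between the changes, so 3 of 7 were called there. Their median in Rb null cells with cisplatin, -0.104, turned to 0.00153 with quantile normalization and 0.0416 after centring.

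The wider pathway was read from a list of 66 further Fanconi, recombination, replication protein A and crosslink or translesion genes, of which 50 had a probe set and 43 were tested. In untreated cells 19 of the 43 were higher in Rb null than in wildtype cells and 0 lower, beside 8.07% and 5.08% of all genes, with a median log2 difference of 0.53. Among 11 further Fanconi genes 4 were higher, among 21 recombination genes 9, among 3 subunits of replication protein A all 3, and among 8 crosslink or translesion genes 3. Uhrf1, a chromatin protein reported to sense crosslinks, averaged 1024 ± 49.3 in untreated Rb null and 231 ± 31.1 in untreated wildtype arrays (log2 2.11 ± 0.10). Ube2t, the ubiquitin-conjugating enzyme that works with FANCL, averaged 349 ± 57.6 against 82.8 ± 24.7 (1.97 ± 0.16). Dna2, a nuclease that resects ends, differed by 1.84, Hells, a chromatin remodeller, by 1.70, and Usp1, which takes the ubiquitin off FANCD2, by 1.62. Other probe sets of Uhrf1 and Usp1 were also called higher.

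After cisplatin 11 of the 43 genes were higher and 1 was lower in Rb null cells, beside 9.67% and 13.3% of all genes, with a median of 0.366. Rpa2, which coats single-stranded DNA, averaged 1783 ± 44.6 in Rb null cisplatin and 599 ± 21.2 in wildtype cisplatin arrays (log2 1.56 ± 0.12, limma adjusted p = 1.41e-07). Dna2 (1.41), Hells (1.18), Usp1 (1.17), Ercc1 (0.97) and Uhrf1 (0.96) followed. Ercc1 and Ercc4 encode the 2 parts of 1 nuclease that cuts crosslinks out. Ercc4 was lower at 138 ± 19.1 in Rb null cisplatin arrays, against 261 ± 50.5 in wildtype cisplatin arrays (-0.86 ± 0.16, limma adjusted p = 0.000508), but a second Ercc4 probe set differed by -0.29 and was not called.

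In wildtype cells cisplatin raised 18 of the 43 genes and lowered 2, beside 14.8% and 12.7% of all genes, with a median of 0.484. Ube2t averaged 337 ± 16.4 in wildtype cisplatin and 82.8 ± 24.7 in untreated wildtype arrays (log2 1.93 ± 0.16, limma adjusted p = 1.74e-07). Uhrf1 (1.20), the translesion factor Rev1 (1.17), Rpa2 (1.15), Eme1, part of a nuclease that cuts joined strands (1.13), and Dna2 (1.06) also rose, while a weaker Dna2 probe set, not tested, differed by 0.08. The genes that fell were Babam2 and Atr. Babam2, a subunit of the BRCA1-A complex, averaged 112 ± 3.40 in wildtype cisplatin and 895 ± 22.5 in untreated wildtype arrays (-2.89 ± 0.10), and its second probe set also differed by -2.89. Atr, the kinase that senses stalled forks, averaged 95.3 ± 9.22 against 242 ± 54.1 (-1.24 ± 0.15).

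In Rb null cells cisplatin raised 4 of the 43 genes and lowered 7. Over all genes 16.6% rose and 20.3% fell, so neither count is above the background. This balance depended on scaling, with 6 higher and 3 lower after quantile normalization and 8 higher and 3 lower after centring on the median. The 4 that rose were Rpa2 (log2 1.21), the recombination factor Rad52 (0.96), the translesion polymerase Polk (0.68) and Dna2 (0.63), although a second Polk probe set differed by -0.26. Weak probe sets of Rad52 (0.49) and Dna2 (0.57) were not called. Babam2 fell to 115 ± 17.5 in Rb null cisplatin arrays, against 855 ± 51.8 in untreated Rb null arrays (-2.79 ± 0.10, limma adjusted p = 1.79e-11). Atr fell by 0.98, Rev3l, the catalytic subunit of a translesion polymerase, by 0.74, and Rad18, which starts translesion synthesis, by 0.67 on the log2 scale. Brcc3 and Uimc1, of the same complex as Babam2, fell by 0.64 and 0.61. Further probe sets of Rev3l (0.12 and -0.08) and Brcc3 (-0.02 and -0.32) were not called.

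The difference between the cisplatin changes was called for 17 of the 43 genes, lower in Rb null cells for 15 and higher for 2, beside 15.0% and 8.7% of all genes, with a median of -0.305. Eme1 (log2 -1.54 ± 0.18), Ube2t (-1.44 ± 0.23), Fancf, a core complex adaptor (-1.20 ± 0.15), Rad18 (-1.15 ± 0.17), Uhrf1 (-1.15 ± 0.14) and Rev1 (-1.04 ± 0.16) were the lowest. Ercc1 (0.99 ± 0.14) and Rad52 (0.73 ± 0.26) were the 2 with a more positive change in Rb null cells. Further probe sets of Fancf, at -0.24, of Rad18, at -0.50, and of Rad52, at 0.60, were not called. Quantile normalization gave 13 lower and 2 higher, and centring on the median 12 lower and 2 higher.

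**Figure D3:**
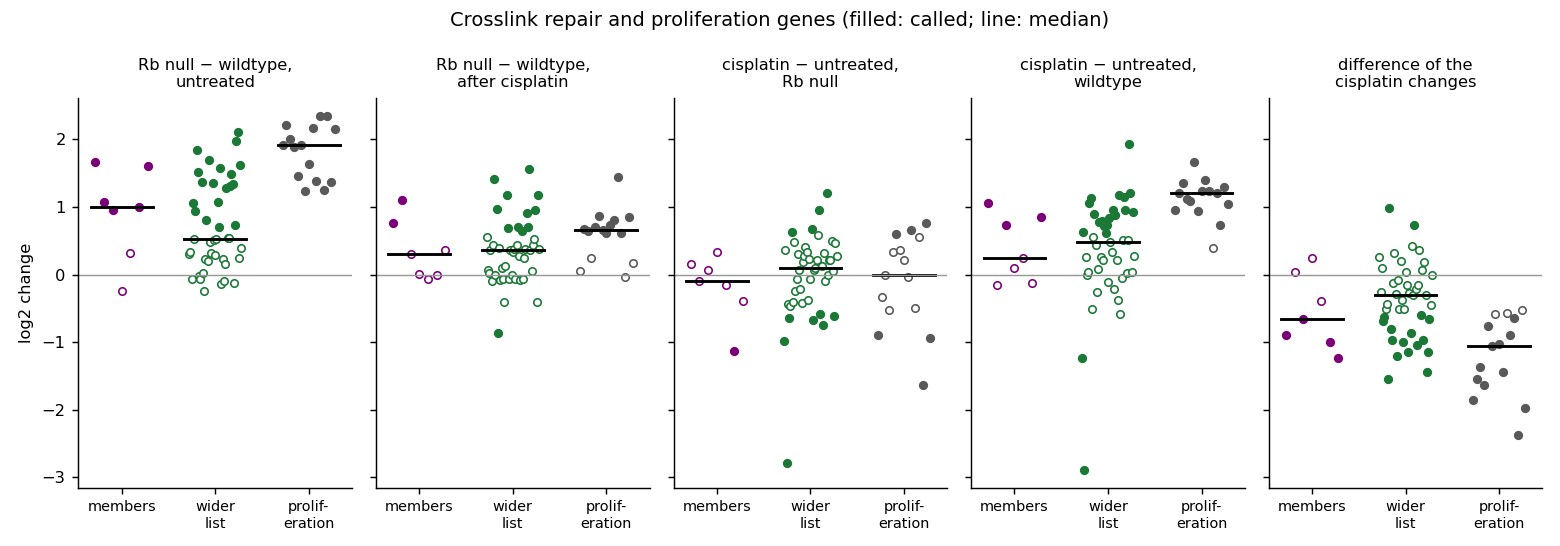
Log2 change (y axis) of each tested gene in the 5 comparisons, for the members (7 genes), the wider repair list (43) and the proliferation list (15). Filled points were called, open points were not, and lines are medians. In untreated cells the medians were 0.998, 0.53 and 1.91, and for the difference between the cisplatin changes -0.655, -0.305 and -1.06.

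Proliferation genes were set beside the members. Of 17 such genes, with Mki67, Top2a, Pcna, the Mcm2 to Mcm7 helicase subunits and mitotic regulators among them, 16 had a probe set and 15 were tested, Tyms being too weak. Their summed signal was 46924 to 47822 in Rb null cisplatin, 29229 to 29967 in wildtype cisplatin, 39451 to 40430 in untreated Rb null and 12544 to 13244 in untreated wildtype arrays. A sum weights strong probe sets most, and gene by gene the order varied: 7 of the 15 averaged highest in Rb null cisplatin and 8 in untreated Rb null arrays, while all 15 were lowest in untreated wildtype arrays. All 15 were higher in untreated Rb null than in untreated wildtype cells (median log2 1.91), and 11 were higher after cisplatin (0.665), beside 8.07% and 9.67% of all genes. Cisplatin raised 14 in wildtype cells (1.20), and in Rb null cells it raised 3 and lowered 3 (-0.0129), where 14.8% of all genes rose in wildtype cells and 16.6% rose and 20.3% fell in Rb null cells. The difference between the changes was called lower for 12 (-1.06), beside 15.0% of all genes. Their part in the members' differences was not tested. Among the leading probe sets of the tested members, Fanca, Brca1 and Rad54l were also lowest in untreated wildtype cells, with no overlap. The Fancg mean was lowest there too, but its arrays overlapped those of the other groups and it was called in no comparison. Brca2 and Fancl did not have their lowest mean there, with wildtype cisplatin means of 158 and 160 against an untreated wildtype mean of 176 for each. The arrays of these 2 wildtype groups overlapped for both genes and the differences were not called. Fancc did not have its lowest mean there either.

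The members were also compared by the shape of their 4 group means, each centred on its own mean on the log2 scale, over 4 points that come from 12 arrays. Brca1 and Rad54l lay nearest each other among the strongly varying members, with a root mean square difference of 0.236, and Fanca lay 0.248 from Rad54l. Brca2 lay 0.372 to 0.626 from the others and Fancl 0.417 to 0.717. Over 7938 other genes, the nearest to Brca1 named here were Wdhd1 (0.0643) and Vegfb (0.0651), and to Rad54l Vrk1 (0.00563), Kitl (0.0418) and Brip1os (0.0538). The nearest to Fanca were Rfc2 (0.0411), Met (0.0418) and Tnfsf9 (0.0504), and to Fancl Sulf2 (0.0171), Cbx5 (0.0219) and Samhd1 (0.0234). Sulf2 averaged 898 in Rb null cisplatin, 894 in wildtype cisplatin, 1990 in untreated Rb null and 961 in untreated wildtype arrays, the pattern of Fancl. Brca2 had more distant neighbours in Pold2 (0.0935), Tpst1 (0.112) and Supt16 (0.123). Fancc and Fancg varied little, and their nearest, Pomp (0.0102) and Xiap (0.0207), varied as little.

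Gene length was set beside the cisplatin changes. Gene spans in GRCm38.p6 were 8.23 kb for Fancg, 29.4 for Rad54l, 47.9 for Brca2, 52.4 for Fanca, 63.2 for Brca1, 84.8 for Fancl and 196 for Fancc. Over all 7940 tested genes with a span, those that fell in Rb null cells were 9.15% under 25 kb, 16.7% from 25 to 50 kb, 35.4% from 50 to 100 kb and 68.8% over 100 kb. In wildtype cells the shares were 5.89%, 9.66%, 18.0% and 49.4%. Of the 50 tested repair genes, members included, 0 of 22, 2 of 12, 4 of 12 and 2 of 4 fell in Rb null cells in the same order of length, and 0, 0, 1 and 1 in wildtype cells. Those that rose were 12, 4, 5 and 0 in wildtype cells, beside 19.1%, 13.3%, 7.88% and 3.9% of all genes. In Rb null cells 2, 1, 1 and 0 rose, beside 22.6%, 14.1%, 6.31% and 2.64%. Fancl and Fancc, the 2 longest tested members, were the 2 with a probe set that fell in Rb null cells. For Fancc this was not the leading probe set, which enters the counts above, differed by 0.34 and was not called. Rad54l, at 29.4 kb, Fanca, at 52.4 kb, and Brca1, at 63.2 kb, rose in wildtype cells by their leading probe sets. The part of length in any single gene's change was not tested.

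**Figure D4:**
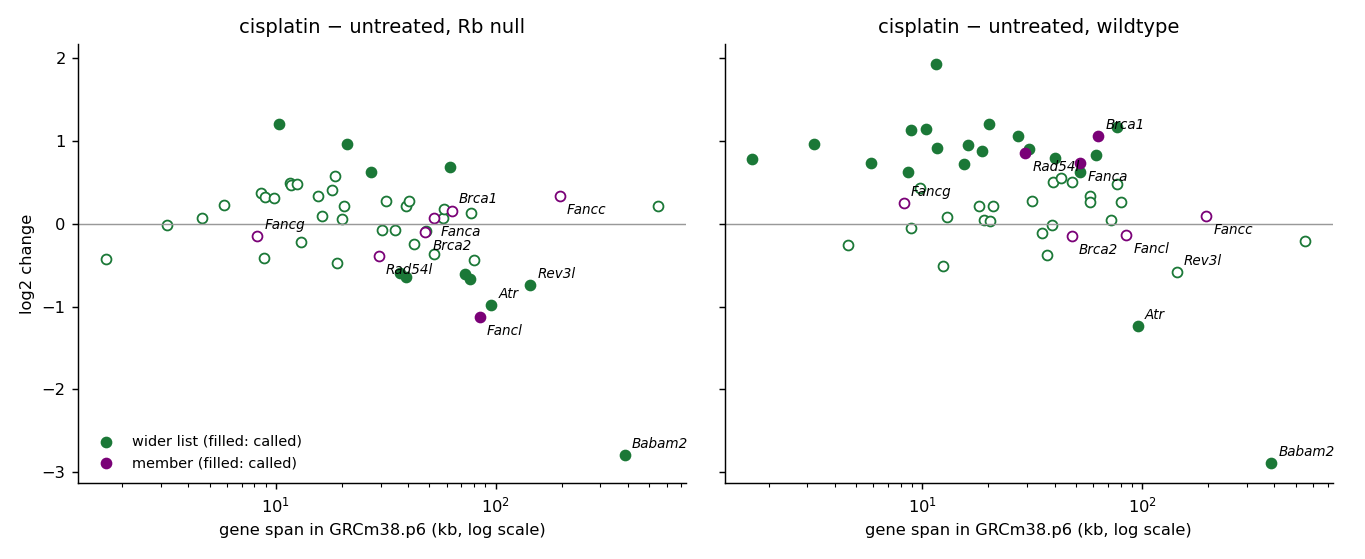
Log2 change with cisplatin (y axis) against gene span (x axis, kb, log scale) for the 7 tested members and the 43 tested genes of the wider list, in Rb null cells on the left and wildtype cells on the right. Filled points were called. Babam2, at the lowest change in both panels, and Fancl, Atr and Rev3l are labelled with the members, and Fancc is shown by its leading probe set, which was not called.

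Promoters of the members were read from RefSeq's GRCm38.p6 annotation, as the 250 bases before to 50 bases after an annotated start. All 8 measured genes had such a window. The start used is not always the outer end of the gene span given above. The windows of Brca2, Fancg and Fancc (chr13:63431696-63431995) lie wholly inside those spans, and motif positions count from the start used. They were searched on both strands for an E2F consensus (TTTCCCGC, TTTCGCGC, TTTGCCGC or TTTGGCGC), the CCAAT box (CCAAT) and the cell cycle homology region (TTTGAA). The E2F letters occur in 2.26% of all 32851 windows, CCAAT in 37.4% and TTTGAA in 17.9%. Counted by gene, 5.08%, 43.0% and 13.9% of 6498 tested genes hold them in any of their windows, in the same order. The 4 windows below are those of Brca1 and Rad54l, with the largest differences between the untreated genotypes, and of Brca2 and Fancl, whose patterns differed from theirs. Each runs 5′ to 3′ on the gene's strand, and capitals mark the motifs. They are chr11:101551906-101552205 (minus strand), chr4:116123641-116123940 (minus), chr5:150522371-150522670 (plus) and chr11:26386834-26387133 (plus), in the order printed.
Brca1: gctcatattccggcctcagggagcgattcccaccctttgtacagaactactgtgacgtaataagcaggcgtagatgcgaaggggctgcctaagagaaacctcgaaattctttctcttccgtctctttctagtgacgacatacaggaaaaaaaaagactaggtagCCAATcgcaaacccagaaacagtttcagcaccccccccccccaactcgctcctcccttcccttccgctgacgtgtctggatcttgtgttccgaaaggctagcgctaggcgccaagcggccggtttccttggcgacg
Rad54l: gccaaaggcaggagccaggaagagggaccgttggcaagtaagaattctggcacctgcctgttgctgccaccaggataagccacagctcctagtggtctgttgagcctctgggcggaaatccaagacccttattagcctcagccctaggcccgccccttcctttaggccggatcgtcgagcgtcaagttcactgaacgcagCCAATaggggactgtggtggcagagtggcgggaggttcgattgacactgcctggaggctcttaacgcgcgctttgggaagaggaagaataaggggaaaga
Brca2: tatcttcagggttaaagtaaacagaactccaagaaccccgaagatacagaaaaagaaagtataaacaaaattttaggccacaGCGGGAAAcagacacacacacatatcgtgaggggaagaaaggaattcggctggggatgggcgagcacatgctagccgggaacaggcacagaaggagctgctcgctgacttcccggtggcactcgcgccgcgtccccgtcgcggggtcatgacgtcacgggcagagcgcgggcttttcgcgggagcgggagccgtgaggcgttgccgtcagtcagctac
Fancl: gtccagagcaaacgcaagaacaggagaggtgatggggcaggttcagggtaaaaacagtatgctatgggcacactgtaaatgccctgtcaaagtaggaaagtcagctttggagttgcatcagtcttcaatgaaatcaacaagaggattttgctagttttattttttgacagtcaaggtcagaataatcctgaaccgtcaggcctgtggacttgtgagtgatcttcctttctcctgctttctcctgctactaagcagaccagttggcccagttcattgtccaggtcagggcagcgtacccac
The Brca1 window holds CCAAT from -86 to -82 relative to the start, and the Rad54l window from -50 to -46. Brca2 holds an E2F match on the minus strand from -168 to -161, read as GCGGGAAA on the printed strand. The Fancl window holds none of these letters. Of the windows not printed, Fanca has CCAAT from -50 to -46 and from -23 to -19, Fancc has it on the minus strand from -242 to -238, Fancg has TTTCCCGC from -52 to -45, and Bard1 has TTTCCCGC from -209 to -202 and TTTGAA from -242 to -237. A match is a description of the letters in the window and says nothing of binding.

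**Figure D5:**
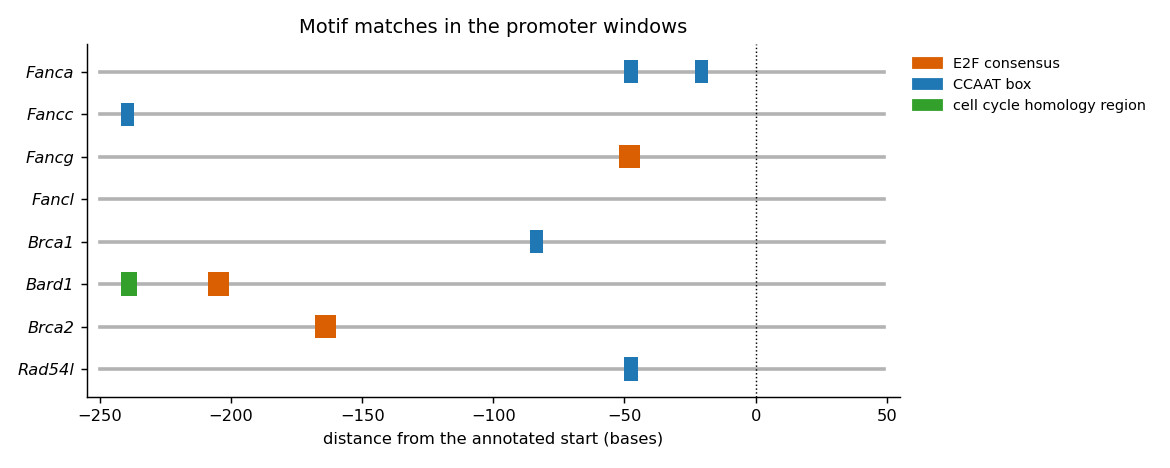
Positions of the motif matches in the promoter windows of the 8 measured genes, as distance in bases from the annotated start (x axis, from -250 to 50). Boxes are matches on either strand. Fancg, Bard1 and Brca2 hold an E2F match, Fanca holds 2 CCAAT boxes, and Fancl holds none of the 3 motifs.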

How the data were processed

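The deposited table held 1 MAS5 signal intensity per probe set and array, made per the submitters' processing notes with MAS5, Affymetrix software that summarises each array by itself. Its version, scaling target and detection calls are not given in the sources used here. The arrays' means, trimmed by 2% at each end, were 500.1 to 500.2, and the deposited intensities were used on that scale. Within groups, arrays correlated at 0.981 to 0.992 on the log2 scale.

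After adding 10.4, the 10th percentile of all values, signals were converted to log2. The 64 controls and the 40% of probe sets with the lowest mean were left out. Group means over all 12 arrays were compared with limma 3.58.1 in R 4.3.3 (lmFit, eBayes with trend, two-sided, Benjamini-Hochberg adjustment). The script was tested on simulated data. The precision is limited by 3 arrays per group.

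The annotation gave 1 gene for 20380 probe sets, several for 691 and none for 1555. A gene's leading probe set lacks a cross-hybridization suffix and has the highest mean. The members, the wider list and the marker lists were chosen with earlier results of these data known. All member probe sets are described, the up to 6 called list genes with the largest change in each direction are named per comparison, and the 3 genes nearest in pattern per member were computed. One gene that this rule selects is not reported here. Where further probe sets of a named gene were not called, their values are given. Alternatives covered the pseudocount, scaling, the filter, the variance trend, the minimum change, the arrays in the fit and a replicate block.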

Additional observations from a re-analysis of the deposited data

Results flagged for a closer look

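For 4 of the 7 tested members the cisplatin change differed between the genotypes by limma's test of the difference itself. That test takes the Rb null change minus the wildtype change on the log2 scale. The values were -0.65 for Fanca, -1.0 for Fancl, -0.90 and -1.09 for the leading and a second probe set of Brca1, and -1.24 for Rad54l. Another tested Brca1 probe set, 1427698_at, gave -0.33 ± 0.38, interval -1.15 to 0.49, and was not called. Such a negative difference was called for 15.0% of all tested genes and a positive one for 8.7%. With quantile normalization (-0.56) and with each array centred on its median (-0.55) Fanca was not called. By the leading probe sets, cisplatin raised Fanca, Brca1 and Rad54l in wildtype cells, whereas it lowered Fancl in Rb null cells. For Rad54l both parts entered, with 0.85 in wildtype cells and -0.39 in Rb null cells, the latter under the minimum for a call. The weak Fanca probe set did not share the wildtype rise (-0.36 without the filter). The difference uses the untreated wildtype arrays, which stood apart in sex-linked transcripts. That part was not tested.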

How the results depend on the processing

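The members' calls were recomputed under each alternative, and no called change turned its sign. Without the filter on low values 5 member probe sets were called between the genotypes after cisplatin, against 3. The added ones were the weak probe sets 1452513_a_at of Fanca and 1424630_a_at of Brca1. Between the untreated genotypes 8 were called, against 6, with 1424630_a_at (log2 1.77) and the weak 1423123_at of Rad54l (0.77) added. The weak Brca1 probe set was also called for cisplatin in wildtype cells (0.99). With no minimum change, the calls over all probe sets were 4598 between the untreated genotypes (against 1678), 6968 after cisplatin (3002), 8756 for cisplatin in Rb null cells (4982), 7413 in wildtype cells (3626) and 5109 for the difference between the changes (3132). That setting also added Fanca after cisplatin (0.30), Rad54l in Rb null cells (-0.39) and the second Fancc probe set in wildtype cells (-0.51). Leaving out 1 array at a time gave 6 called member probe sets between the untreated genotypes, 3 after cisplatin, 2 in Rb null cells, 4 to 5 in wildtype cells and 4 to 5 for the difference. The fit without the untreated wildtype group, chosen after seeing the data, gave 3 after cisplatin and 2 in Rb null cells, unchanged. Arrays that share a number did not deviate together (correlations -0.186 to 0.109), so no pairing by number was seen. With 3 arrays per group this cannot exclude one. With the replicate block 6, 3 and 5 member probe sets were called, and 1685, 3008 and 3061 over all probe sets, in the genotype comparisons and the difference. The cisplatin changes had no such fit, since their groups share no number. Without detection calls, depth of signal limits what can be said of Bard1 and the 5 other weak probe sets.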
